A study of Mus musculus with 2 samples.

Results

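The data described here are the unique molecular identifier (UMI) counts of 7 genes that are used as markers of osteoclasts, in 2 single-cell libraries of immune cells from mouse tumours. The genes were Tnfrsf11a, Nfatc1, Dcstamp, Ocstamp, Atp6v0d2, Acp5 and Ctsk, 7 of the 47730 features counted, each matched by its symbol to 1 row. They were picked because a small group of barcodes with Ctsk, Acp5 and Atp6v0d2 had been seen in the estradiol library, so their levels and their co-expression are given as a description, with no test. A barcode stands for a droplet and is treated as a cell. Barcodes with at least 1 UMI of 3 or more of the 7 genes numbered 237 of 5791 in the E2 library and 127 of 3505 in the placebo library.

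Both libraries came from tumours of ovariectomised C57BL6\J mice that had been given either estradiol (E2) or placebo, so loss of the ovaries was common to both groups. The tumours were dissociated, live CD45+ cells were sorted by flow cytometry, and libraries were made with the 10x Genomics 3' chemistry, which counts the ends of polyadenylated transcripts. Each treatment had 1 library. The labels used here state neither the tumour type nor the E2 dose, the length of treatment or how many mice were pooled. Treatment, animals and library preparation cannot be told apart. Intervals below are exact 95% intervals, cover counting error only and say nothing of the spread between mice.

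Osteoclasts form when macrophage precursors that receive CSF1 also receive RANK ligand. RANK ligand binds RANK, the product of Tnfrsf11a, and the signal induces the transcription factor Nfatc1, which switches on the genes of cell fusion and of bone resorption. DC-STAMP and OC-STAMP, the products of Dcstamp and Ocstamp, are membrane proteins needed for fusion into multinucleated cells. Atp6v0d2 encodes a subunit of the proton pump that acidifies the space under the cell, Acp5 encodes tartrate-resistant acid phosphatase (TRAP), and Ctsk encodes cathepsin K, the protease that degrades bone collagen. None of the 7 is exclusive to osteoclasts: fibroblasts make cathepsin K, NFATc1 acts in lymphocytes, and activated macrophages and dendritic cells can express the fusion genes.

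Ctsk and Acp5 were the pair of the 7 genes whose UMIs followed each other most closely over the barcodes described below, so the 250 bases before a transcription start of each are shown, from the RefSeq promoter table of GRCm38.p6. Both genes helped to choose those barcodes. The Ctsk window is chr3:95498960-95499209 on the plus strand, and the Acp5 window is chr9:22130599-22130848 on the minus strand, before the innermost of its 3 listed starts. Capitals mark letters that match the core of NFAT sites (GGAAA), the AP-1 element (TGANTCA) or the E-box (CANNTG), the class of site bound by MITF, each searched on both strands.
Ctsk: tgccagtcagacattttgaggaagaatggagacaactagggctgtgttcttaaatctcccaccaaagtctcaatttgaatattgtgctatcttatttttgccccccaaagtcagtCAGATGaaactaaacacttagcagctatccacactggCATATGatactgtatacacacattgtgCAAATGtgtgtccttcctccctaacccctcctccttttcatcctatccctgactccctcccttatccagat
Acp5: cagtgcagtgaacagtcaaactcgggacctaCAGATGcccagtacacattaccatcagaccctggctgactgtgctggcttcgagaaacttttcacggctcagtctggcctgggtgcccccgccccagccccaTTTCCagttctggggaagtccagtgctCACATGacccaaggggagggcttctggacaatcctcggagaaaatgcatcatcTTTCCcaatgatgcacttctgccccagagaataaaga
The Ctsk window held 3 E-box matches, 66 to 135 bases before the start, and 0 matches to the other motifs. The Acp5 window held 2 NFAT core matches and 2 E-box matches, 33 to 219 bases before the start, and 0 AP-1 matches. Of 32851 windows of this length in the table, 55.6% held the NFAT core, 66.2% an E-box and 6.75% the AP-1 element, so most promoters hold the motifs found here, and a match is a description of letters only. Tnfrsf11a also has an entry in the table. Atp6v0d2, Dcstamp, Ocstamp and Nfatc1 were not matched in it.

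The E2 library held 52628133 UMIs (median 8049 a barcode) and the placebo library 24545595 (median 5128). No UMI of a mitochondrial gene was present in either. Barcode sequences found in both libraries numbered 95, and in 35 of them the lower total was under 5% of the higher. Among barcodes with 3 or more of the genes, 2 E2 and 4 placebo barcodes carried such a shared sequence. After clustering, barcodes were named by marker genes as, for example, monocyte/macrophage-like (2070 in E2, 915 in placebo), T-like (846 and 1055) or fibroblast-like (26 and 6). Fibroblast-like barcodes fall outside what a CD45+ sort should keep.

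Over whole libraries, where fewer cells of a type and less RNA per cell cannot be told apart, the resorption genes Ctsk and Atp6v0d2 were at higher levels in E2, the fusion genes Dcstamp and Ocstamp at lower levels, and the receptor Tnfrsf11a and the transcription factor Nfatc1 had ratios near 1. Levels are counts per 1000000 UMIs of the library (CPM). Of the 7 genes, 2 were at least 2-fold higher in E2, against 4.17% of the 16730 genes with 20 or more UMIs over both libraries. None of the 7 was at least 2-fold lower, against 6.96% of those genes. The median log2 ratio was 0.24 over the 7 genes and −0.16 over all genes measured with a UMI in both libraries. Because these genes were chosen from the same counts, the ratios are not evidence for a difference.

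**Figure D1:**
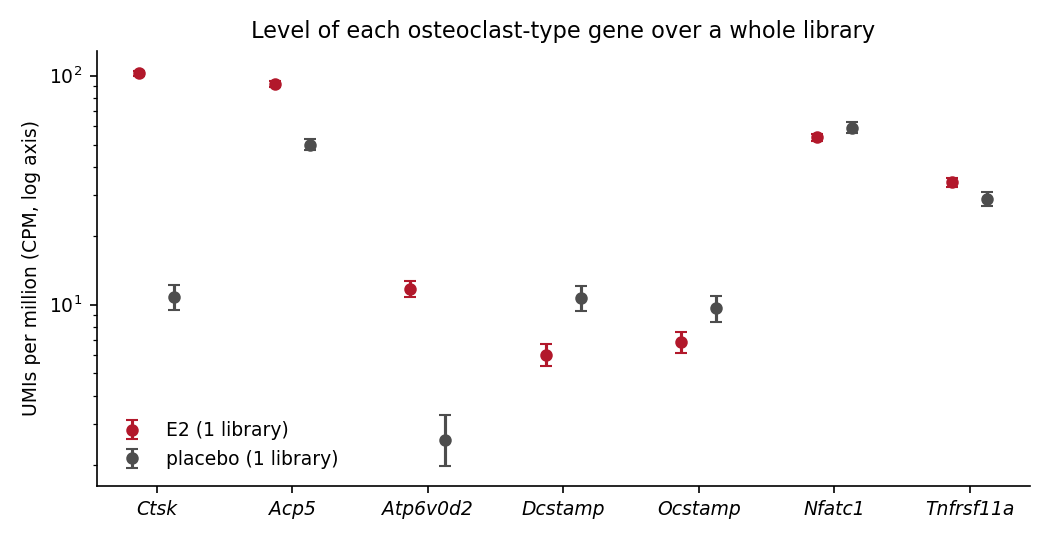
CPM (log axis) of each of the 7 genes over the E2 library (red, left of each pair) and the placebo library (grey, right). Points are library values and bars exact 95% Poisson intervals, with 1 library a group. Ctsk is at 103 CPM in E2 and 10.8 in placebo, while Dcstamp is at 6.02 CPM in E2 and 10.6 in placebo.

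Tnfrsf11a (ENSMUSG00000026321; chromosome 1, 105780718 to 105847981, plus strand) is the receptor gene; this and the positions of the other 6 protein-coding genes are GRCm38 coordinates of the GENCODE M21 annotation. It had 1802 UMIs in the E2 library, in 19.9% of barcodes, and 711 UMIs in the placebo library, in 13.3% of barcodes. Its level was 34.2 CPM in E2 and 29.0 CPM in placebo, a ratio of 1.18 (1.08 to 1.29). It was highest among the named classes in mature dendritic-like barcodes, at 139.6 CPM in E2 and 128 CPM in placebo. Monocyte/macrophage-like barcodes had 44.3 CPM in E2 and 44.7 CPM in placebo, with overlapping intervals, and ILC2-like barcodes 41.6 CPM in E2 and 29.2 CPM in placebo. RANK on dendritic cells is the receptor through which T cell RANK ligand prolongs their survival.

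Nfatc1 (ENSMUSG00000033016; chromosome 18, 80606205 to 80713071, minus strand) encodes the transcription factor. It had 2833 UMIs in E2, in 30.4% of barcodes, and 1457 UMIs in placebo, in 29.3% of barcodes. Its level was 53.8 CPM in E2 and 59.4 CPM in placebo, a ratio of 0.907 (0.851 to 0.967). It was the most widely spread of the 7 genes by share of barcodes. Mast-like barcodes had 124 CPM in E2 and 117 CPM in placebo, B-like barcodes 123 CPM in E2 and 86.2 CPM in placebo. NK-like barcodes had 96.6 CPM in E2 and 134 CPM in placebo, and T-like barcodes 83.9 CPM in E2 and 85.7 CPM in placebo. Monocyte/macrophage-like barcodes were lower than these, at 42.5 CPM in E2 and 49.6 CPM in placebo.

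Dcstamp (ENSMUSG00000022303; chromosome 15, 39745930 to 39760938, plus strand) is a fusion gene. It had 317 UMIs in 93 E2 barcodes and 261 UMIs in 104 placebo barcodes. Its level was 6.02 CPM in E2 and 10.6 CPM in placebo, a ratio of 0.566 (0.479 to 0.670). Ocstamp (ENSMUSG00000027670; chromosome 2, 165393760 to 165400405, minus strand), its partner in fusion, had 360 UMIs in 183 E2 barcodes and 236 UMIs in 120 placebo barcodes. Its level was 6.84 CPM in E2 and 9.61 CPM in placebo, a ratio of 0.711 (0.602 to 0.842). In monocyte/macrophage-like barcodes Dcstamp was at 10.6 CPM in E2 and 23.2 CPM in placebo and Ocstamp at 9.31 CPM in E2 and 22.4 CPM in placebo. Cluster 7 of that class, led by Arg1, Ccl24 and Mmp12, was 214 of its 2070 barcodes in E2 and 271 of its 915 in placebo. The part of this mix in the 2 levels was not tested. Barcodes with both genes were found in each library: 30 of the 93 E2 barcodes with Dcstamp (32.3%) and 34 of the 104 placebo barcodes with Dcstamp (32.7%) also had Ocstamp. As a share of the Ocstamp barcodes, that overlap was 16.4% in E2 and 28.3% in placebo.

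Atp6v0d2 (ENSMUSG00000028238; chromosome 4, 19876841 to 19922605, minus strand) encodes the proton pump subunit. It had 618 UMIs in 131 E2 barcodes and 63 UMIs in 39 placebo barcodes. Its level was 11.7 CPM in E2 and 2.57 CPM in placebo, a ratio of 4.58 (3.53 to 6.03). Mast-like barcodes had it at 46.0 CPM in E2 and 55.0 CPM in placebo, with overlapping intervals, and held little Ctsk (1.66 CPM in E2, 0 in placebo) or Acp5 (1.11 and 4.40 CPM). In T-like barcodes, which should lack the gene, 0.591% in E2 and 0.664% in placebo had a UMI, at median depths of 4060 and 4364 UMIs, against 2.26% of all E2 barcodes and 1.11% of all placebo barcodes.

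Acp5 (ENSMUSG00000001348; chromosome 9, 22126727 to 22135711, minus strand) encodes the acid phosphatase. It had 4829 UMIs in E2, in 18.2% of barcodes, and 1225 UMIs in placebo, in 20.2% of barcodes. Its level was 91.8 CPM in E2 and 49.9 CPM in placebo, a ratio of 1.84 (1.73 to 1.96), although a smaller share of E2 barcodes had a UMI. B-like barcodes had 118 CPM in E2 and 104 CPM in placebo, and T-like barcodes 70.7 CPM in E2 and 78.1 CPM in placebo, both above monocyte/macrophage-like barcodes (51.6 CPM in E2, 56.6 CPM in placebo). ILC2-like barcodes were below these, at 38.6 CPM in E2 and 26.0 CPM in placebo. The 10 barcodes with most Acp5 held 42.2% of its UMIs in E2 and 11.3% in placebo.

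Ctsk (ENSMUSG00000028111; chromosome 3, 95499256 to 95509362, plus strand) encodes the collagenolytic protease. It had 5400 UMIs in 182 E2 barcodes and 264 UMIs in 61 placebo barcodes. Its level was 103 CPM in E2 and 10.8 CPM in placebo, a ratio of 9.54 (8.43 to 10.8). Fibroblast-like barcodes had it at 1146 CPM in E2 and 730 CPM in placebo, and held 14.5% of the Ctsk UMIs of E2 and 61.4% of those of placebo. They had 0 UMIs of Atp6v0d2 in either library, 19.0 CPM of Acp5 in E2 and 31.5 CPM in placebo, so Ctsk alone does not set the osteoclast pattern apart from fibroblasts. In T-like barcodes, 1.18% in E2 and 0.664% in placebo had a Ctsk UMI, against 3.14% of all E2 barcodes and 1.74% of all placebo barcodes. In the placebo library 5 fibroblast-like barcodes with shared sequences held 142 of the 264 Ctsk UMIs; the same sequences had 504 to 1519 UMIs in E2, against 23076 to 66019 in placebo, and 0 Ctsk UMIs there. Without all shared barcode sequences the ratio was 21.8.

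**Figure D2:**
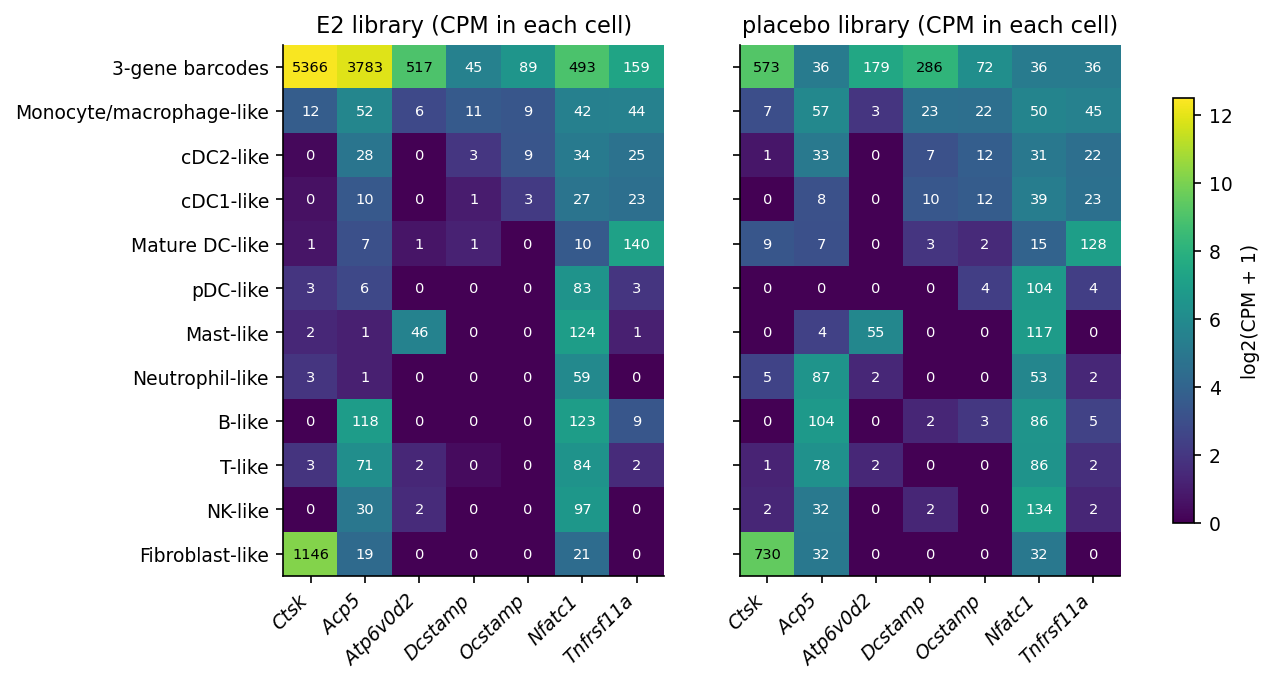
CPM (printed in each cell, coloured by log2(CPM + 1)) of the 7 genes in named classes of barcodes, E2 library left and placebo library right; the top row is the barcodes with Ctsk, Acp5 and Atp6v0d2 together, 39 in E2 and 1 in placebo, which are also counted in their own class. Ctsk is high in the top row and in fibroblast-like barcodes, Atp6v0d2 in the top row and in mast-like barcodes, and Tnfrsf11a in the top row of E2 and in mature dendritic-like barcodes.

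Barcodes with 3 or more of the 7 genes had similar shares in both libraries, and the ratio moved in both directions with the definition. These barcodes made up 4.09% of E2 (3.6 to 4.64%) and 3.62% of placebo (3.03 to 4.30%), a ratio of 1.13 (0.907 to 1.41). With 2 or more UMIs asked of each gene the ratio was 1.87 (1.13 to 3.23), and with Dcstamp left out of the set it was 1.36 (1.06 to 1.75). Exactly 3 genes were found in 168 E2 and 97 placebo barcodes, just inside the rule, and exactly 2 in 776 E2 and 420 placebo barcodes, just outside it. Barcodes inside the rule were deeper, with a median of 17261 UMIs in E2 and 14882 in placebo, against 7738 UMIs in E2 and 4967 in placebo for the rest. Thinned to 2000 UMIs a barcode, which left out 550 E2 and 465 placebo barcodes, 29 E2 barcodes (0.553%) and 8 placebo barcodes (0.263%) remained, and the interval of the ratio of shares ran from 0.938 to 5.32. Within monocyte/macrophage-like barcodes alone, the share was 5.36% in E2 and 8.96% in placebo, a ratio of 0.598 (0.446 to 0.806), in the opposite direction to that over all barcodes. The make-up of this class differed: cluster 7, described below, was 214 of its 2070 barcodes in E2 and 271 of its 915 in placebo. The part of this mix in the ratio was not tested. At the upper end, all 7 genes were found in 8 E2 barcodes (0.138%, 0.0597 to 0.272%) and in 1 placebo barcode (0.0285%, up to 0.159%), and 6 or more in 19 E2 and 2 placebo barcodes, again with overlapping intervals and without matching for depth.

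**Figure D3:**
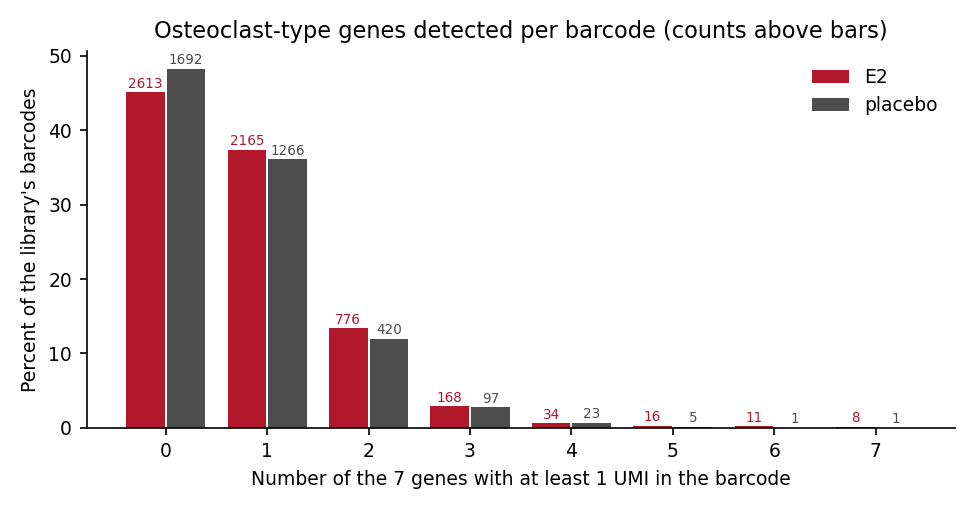
Percent of barcodes (vertical axis) with 0 to 7 of the 7 genes detected (horizontal axis), E2 in red left of placebo in grey, with the number of barcodes above each bar. The bars for 3 genes stand for 168 E2 and 97 placebo barcodes; those for all 7 genes stand for 8 and 1.

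The genes that met in those barcodes had different shares in the 2 libraries. The commonest combination in both libraries was Acp5, Nfatc1 and Tnfrsf11a with none of the other 4 genes, in 80 of the 237 E2 barcodes (33.8%) and 33 of the 127 placebo barcodes (26.0%). These are the 3 genes detected in the largest shares of all barcodes. Ctsk was present in 29.5% of the E2 barcodes with 3 or more genes and in 15.7% of the placebo ones. Atp6v0d2 was present in 27% of them in E2 and 6.30% in placebo. Dcstamp stood the other way, in 20.3% of them in E2 and 44.1% in placebo, and Ocstamp in 31.6% and 38.6%. Cluster 7, a monocyte/macrophage-like cluster led by Arg1, Ccl24 and Mmp12, held 49 of the 237 E2 barcodes and 58 of the 127 placebo barcodes, which were 22.9% and 21.4% of that cluster in the 2 libraries.

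Ctsk, Acp5 and Atp6v0d2 met in the same barcode far more often in E2, as was known when the genes were picked. Barcodes with at least 1 UMI of each, called 3-gene barcodes from here on, were defined after the values had been seen; there were 39 in E2 (0.673%, 0.479 to 0.920%) and 1 in placebo (0.0285%, up to 0.159%). Barcodes with at least 10 UMIs of Ctsk and at least 10 of Acp5 numbered 26 in E2 (0.449%), of which 25 also had Atp6v0d2. In placebo they numbered 0 of 3505, which allows a share of up to 0.105%. Thinned to 5000 UMIs, 28 of 3778 E2 barcodes and 0 of 1800 placebo barcodes had all 3 genes. A count of 0 of 1800 allows up to 0.205%, against 0.741% in E2. Among barcodes with at least 10000 UMIs the counts were 35 of 2151 in E2 and 1 of 785 in placebo. None of the 39 carried a barcode sequence shared with the placebo library, and none was removed by the filter on genes or by the doublet score, whose median was 0.0532 in them and 0.0232 over all E2 barcodes.

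Of barcodes with Ctsk, 42.9% in E2 and 31.1% in placebo also had Acp5. Of barcodes with Atp6v0d2, 33.6% in E2 and 10.3% in placebo also had Ctsk, and 45.8% and 23.1% also had Acp5. Combinations of 2 of these 3 genes without the third were found in both libraries: Ctsk and Acp5 in 39 E2 and 18 placebo barcodes, Acp5 and Atp6v0d2 in 21 and 8, and Ctsk and Atp6v0d2 in 5 and 3.

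**Figure D4:**
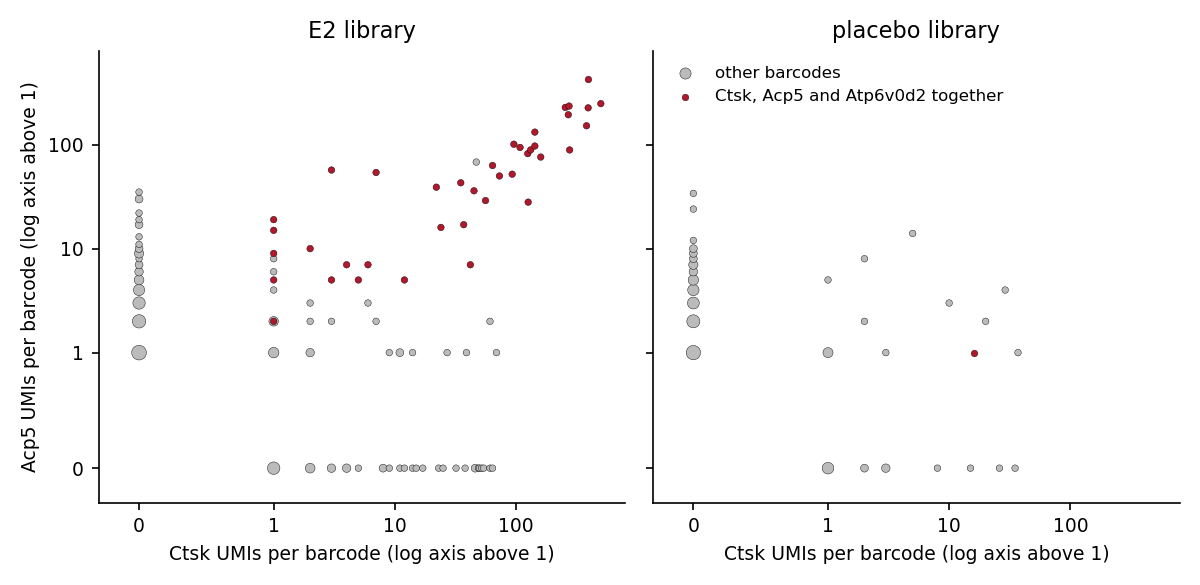
Ctsk UMIs (horizontal axis) against Acp5 UMIs (vertical axis) of each barcode that has either gene, E2 library left and placebo library right, both axes logarithmic above 1 and larger grey points standing for more barcodes. Red points are barcodes with Ctsk, Acp5 and Atp6v0d2 together. In E2 they run up to 501 Ctsk UMIs and 423 Acp5 UMIs, and the 1 in placebo has 16 and 1.

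The 39 E2 barcodes carried most of the E2 UMIs of the resorption genes. They were 0.673% of the barcodes and 1.53% of all UMIs of the library, and held 80.0% of the Ctsk UMIs, 67.3% of the Atp6v0d2 UMIs and 63.1% of the Acp5 UMIs of the library. They held 20% of the Ocstamp UMIs, 14% of the Nfatc1 UMIs, 11.4% of the Dcstamp UMIs and 7.10% of the Tnfrsf11a UMIs, although these 4 genes took no part in choosing them. Without the 3-gene barcodes the library ratio of E2 over placebo was 2.06 for Ctsk (20.8 CPM in E2, 10.1 in placebo) and 1.65 for Atp6v0d2 (3.9 CPM in E2, 2.37 in placebo). That of Acp5 turned round, to 0.689, with 34.4 CPM in E2 and 49.9 CPM in placebo. The barcodes taken out, 39 in E2 and 1 in placebo, had been chosen by having these 3 genes. They held 3046 Acp5 UMIs in E2 and 1 in placebo, so a fall of the 3 ratios follows from that choice. Dcstamp, Ocstamp, Nfatc1 and Tnfrsf11a kept their direction without the 3-gene barcodes, at 0.525, 0.582, 0.792 and 1.12.

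Per barcode, Ctsk ranged from 1 to 501 UMIs over the 39 (median 56), Acp5 from 2 to 423 (median 50) and Atp6v0d2 from 1 to 40 (median 6). The barcodes had a median of 18589 UMIs in total, from 5809 to 42265. Tnfrsf11a was present in 33 of the 39 (84.6%) with up to 13 UMIs, against 29.7% of the other monocyte/macrophage-like barcodes of E2. Nfatc1 was present in 30 (76.9%) with up to 42 UMIs, against 29.9%. Ocstamp was present in 17 (43.6%), against 4.57%, and Dcstamp in 12 (30.8%), against 2.04%. The levels of these 4 genes in the 3-gene barcodes were 159 CPM for Tnfrsf11a, 493 CPM for Nfatc1, 89.4 CPM for Ocstamp and 44.7 CPM for Dcstamp, against 43.9, 42.0, 9.14 and 10.5 CPM in the other monocyte/macrophage-like barcodes. The other barcodes had a median depth of 9268 UMIs, and the part of depth in the shares was not tested.

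The 39 fell into several clusters, so no cell type is named for them as a whole. Cluster 21, which was left unnamed under the rules for markers (99 E2 and 45 placebo barcodes, median 1658.5 UMIs), held 26 of them. Its leading genes were Acp5, Jdp2, Chchd10, Nfatc1, Prdm1 and Lmna, of which Acp5 and Nfatc1 took no part in the clustering. In these 26 barcodes the median was 102 UMIs of Ctsk, 79 of Acp5, 10.5 of Atp6v0d2 and 12 of Nfatc1, and Lyz2, a general macrophage gene, was present in 9. The other 13 lay in monocyte/macrophage-like clusters (11) or in cluster 19, led by cell cycle genes (2). Their medians were 4 UMIs of Ctsk, 7 of Acp5, 3 of Atp6v0d2 and 0 of Nfatc1, and Lyz2 was present in 12 with a median of 147 UMIs. The ranges of Ctsk overlap, 1 to 501 in the 26 and 1 to 143 in the 13. None of the 45 placebo barcodes of cluster 21 had 3 or more of the 7 genes; their median was 1186 UMIs, against 5809 to 39283 UMIs in the 26, and 11 of the 45 had at least 5809. The cluster depended on the resolution: at 0.5 and at 2, 25 of the 39 lay in a cluster of 48 E2 and 9 placebo barcodes that also held the endothelial-like barcodes, although the 5 endothelial markers had 1 UMI in all in the 39.

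Across the 39 barcodes UMIs of Ctsk followed those of Acp5 (Pearson r = 0.802), Atp6v0d2 (r = 0.745) and Nfatc1 (r = 0.549), and less those of Ocstamp (r = 0.374), Dcstamp (r = 0.289) and Tnfrsf11a (r = 0.203). These are descriptions over barcodes of 1 library, which share its mice and differ in depth. Ctsk, Acp5 and Atp6v0d2 themselves chose the 39. The 39 also join the 26 barcodes of cluster 21 with 13 others of lower medians, and the part of that split in r was not tested.

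The single placebo barcode with all 3 genes had all 7: 16 UMIs of Ctsk, 1 of Acp5, 5 of Atp6v0d2, 8 of Dcstamp, 2 of Ocstamp, 1 of Nfatc1 and 1 of Tnfrsf11a in 27927 UMIs. It lay in cluster 7 and had 0 UMIs of Mmp9 and of Jdp2. Its Dcstamp was near the top of the range in the E2 barcodes (0 to 9), and its Acp5 was below their range.

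Other genes of the osteoclast programme were compared between the 39 3-gene barcodes and the 2059 other monocyte/macrophage-like barcodes of E2, both within 1 library and with no test. Of the 39, only 11 were monocyte/macrophage-like and 28 lay in unnamed clusters. Their median depth was 18589 UMIs, against 9268 in the 2059, so class and depth differ along with the 3 genes. Values are log2 ratios of CPM after adding 10 CPM, which shrinks the ratio of low genes. A gene was measured where the 39 had at least 20 UMIs and at least a 1-in-3 share of them had a UMI. A gene nearly lost in the 39 could therefore not be counted as lower. Genes with a UMI in under a 1-in-3 share of the other barcodes could pass through the 39 alone. Of the genes at least 2-fold higher in the lists below, these were Mmp9, Slc9b2, Slc4a2, Mmp14, Atp6v1c1, Src, Cd9, Prdm1, Mitf and, at 33.32%, Jdp2. The counts of higher genes in the lists below depend on this rule. Of the 4623 genes measured other than the 7, 8.54% were at least 2-fold higher in the 3-gene barcodes and 5.6% at least 2-fold lower, and the median over all was 0.07. Of the genes of acid secretion and matrix resorption, 12 of the 23 measured were at least 2-fold higher, 0 were lower, and the median of the list was 1.06. With genes kept by a mean of at least 20 CPM over both groups instead, a filter added after the values were seen, 12 of 23 were at least 2-fold higher and 0 lower, beside 6.68% higher and 11.2% lower of 5601 genes. The 39 alone can lift a gene past this mean too, as for Mmp9 and Slc9b2, so this count is not independent of the first.

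The gelatinase Mmp9, an abundant product of osteoclasts, had 4771 CPM in the 3-gene barcodes, in 26 of 39, against 1.76 CPM in the others (log2 8.67). The 39 held 55.1% of the 6973 Mmp9 UMIs of the E2 library. Slc9b2, a sodium/proton exchanger known from osteoclasts as NHA2, had 283 CPM in 26 of 39 barcodes, against 0.155 CPM (log2 4.85). The 39 held 89.4% of its 255 UMIs in E2, and the whole placebo library had 10 UMIs. The bicarbonate/chloride exchanger Slc4a2 was at 113 against 16.3 CPM (log2 2.23) and Mmp14 at 318 against 75.7 CPM (log2 1.94). Pump subunits with the largest differences were Atp6v1a (log2 1.97), Atp6v1d (1.95), Atp6v1b2 (1.88) and Atp6v1c1 (1.58), and the osteoclast subunit Tcirg1 stood at 323 against 149 CPM (log2 1.06). The chloride channel Clcn7 (0.82) was below 2-fold, its partner Ostm1 (−0.13) and the common subunit Atp6v0d1 (0.04) were near 0, and Car2, the carbonic anhydrase of osteoclasts, had only 2 UMIs.

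Of the transcription factors, 3 of the 9 measured were at least 2-fold higher and 1 was lower, with a list median of 0.17. Jdp2, an AP-1 family factor that promotes osteoclast formation in mice, was at 989 against 68.6 CPM (log2 3.67). Prdm1, the repressor Blimp1, which silences inhibitors of Nfatc1, was at 266 against 35.2 CPM (log2 2.61), and Mitf was at 84.5 against 24.9 CPM (log2 1.44). Nfkb1 was lower, at 78.3 against 172 CPM (log2 −1.05), while Fos (−0.08) and Spi1 (0.17) were near 0. Of the inhibitory factors, Irf8 was lower, at 48.4 against 140 CPM (log2 −1.36), and Id2 stood at 0.06.

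Among attachment and fusion genes, 3 of the 7 measured were at least 2-fold higher, of which Src and Cd9 could pass the measured rule through the 39 alone. The tetraspanin Cd81, which fell short of the measured rule in the 39, was lower there, at 4.97 against 94.1 CPM (log2 −2.80). The 3 higher genes were the kinase Src, at 85.7 against 5.22 CPM (log2 2.65), the fusion-associated tetraspanin Cd9 (log2 2.06) and the integrin chain Itgav, at 214 against 52.3 CPM (log2 1.84). Itgb3, which pairs with Itgav in the osteoclast vitronectin receptor, had 2 UMIs. Siglec15, a fusion receptor of osteoclasts, had 6 UMIs in 5 barcodes, of 8 in the whole E2 library and 1 in placebo. Calcr, the calcitonin receptor, had 0 UMIs in both libraries.

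Receptors, adaptors and lysosomal proteases are the remaining lists. None of the 7 receptor and adaptor genes measured was 2-fold higher or lower, with a list median of −0.17, while Sirpb1a, too low in the 39 to be measured, stood at 2.48 against 15.7 CPM. Csf1r, the CSF1 receptor, was at 669 against 715 CPM and present in 39 of 39, and Trem2 was at 597 against 419 CPM. Oscar, a collagen receptor of osteoclasts, had 0 UMIs in the 39 and 1 in the E2 library. None of the 6 lysosomal proteases was 2-fold higher or lower, among them Ctsb (−0.05), Ctsl (0.01), Ctsd (0.36) and Ctss (−0.38). None of the 4 ligand and cytokine genes was measured. Tnfsf11, which encodes RANK ligand, had 0 UMIs in the 39, with 250 UMIs elsewhere in the E2 library and 336 in placebo.

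**Figure D5:**
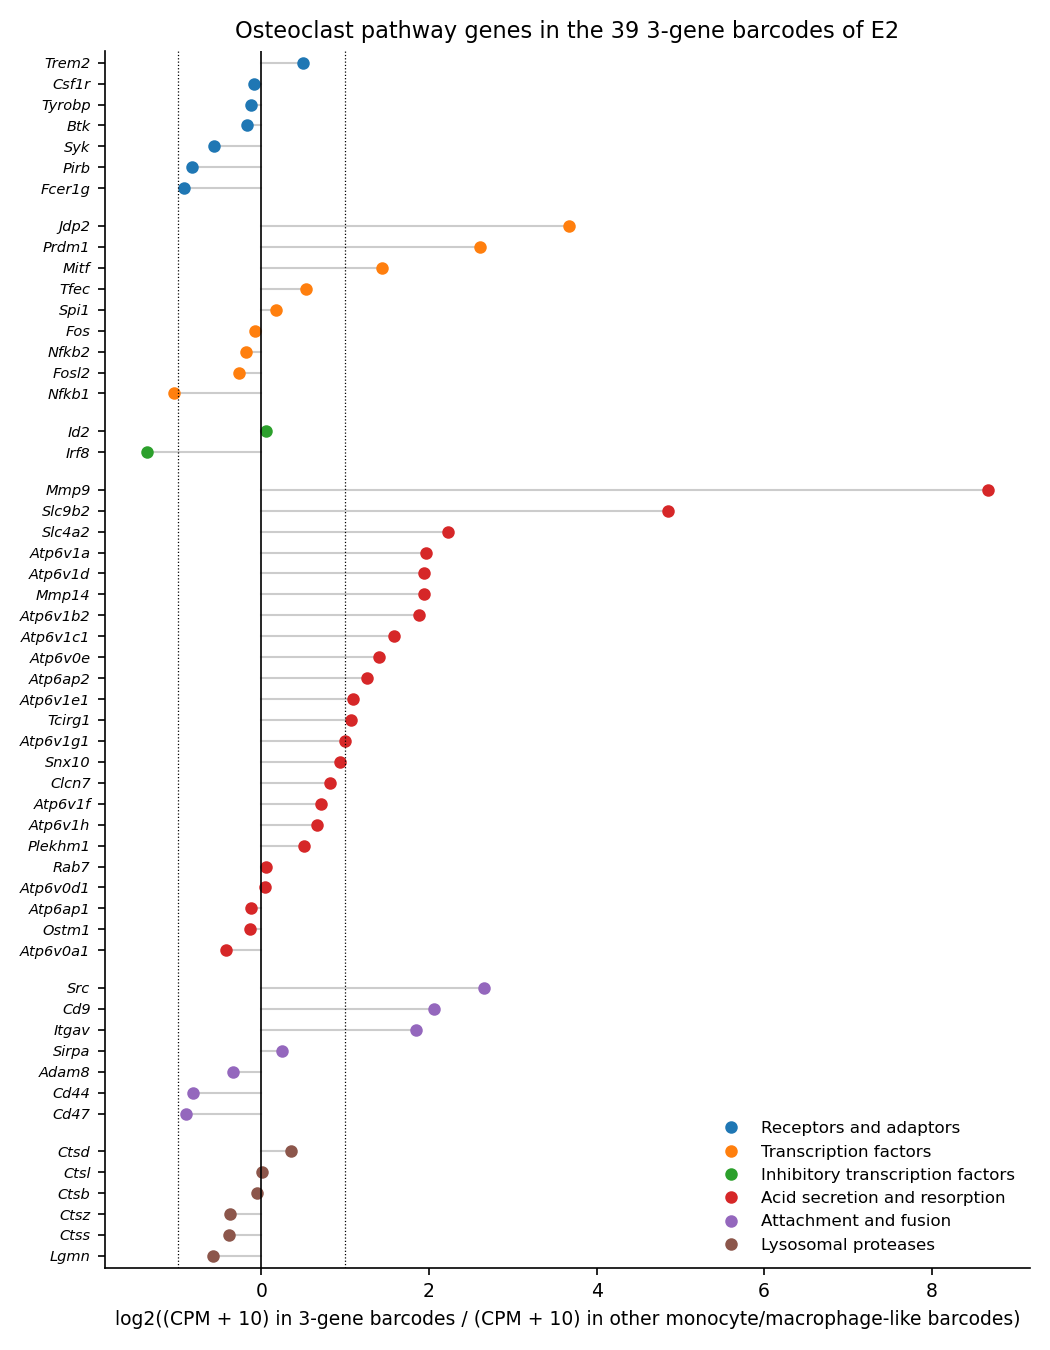
Log2 ratio of CPM + 10 (horizontal axis) of measured osteoclast pathway genes (rows, coloured and grouped by role), in the 39 3-gene barcodes over the 2059 other monocyte/macrophage-like barcodes of E2; dotted lines mark 2-fold. Of the acid secretion and resorption genes, 12 of 23 lie beyond the upper line, with Mmp9 at 8.67, while all 7 receptor and adaptor genes and all 6 lysosomal proteases lie between the lines. Some genes, among them Mmp9, Slc9b2 and Jdp2, could pass the measured rule through the 39 alone. Of the 39, only 11 were monocyte/macrophage-like.

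The 3-gene barcodes carried part of the monocyte/macrophage programme. Csf1r and Cd68 were present in 39 of 39 and Apoe in 37. Adgre1, which encodes F4/80, was present in 10 of 39 against 62.8% of the other monocyte/macrophage-like barcodes, Lyz2 in 21 against 98.7%, C1qa in 14 against 43.3%, and Ly6c2, a monocyte gene, in 0 against 40.0%. These genes were unevenly spread over the 39. Adgre1 was present in 1, Lyz2 in 9 and C1qa in 5 of the 26 barcodes of cluster 21. In the other 13 barcodes the counts were 9, 12 and 9. Over the 12 monocyte/macrophage markers the summed level was 13718 CPM, with 1 at 0, against 33629 CPM in the others, and ranged over barcodes from 809 to 133567 CPM. It was 5696 CPM in the 26 E2 barcodes with at least 10 UMIs each of Ctsk and Acp5. Of 7 T cell markers 6 were at 0, of 6 keratinocyte markers all were at 0, and of 5 osteoblast markers Sp7, Bglap, Ibsp and Alpl were at 0. The 6 fibroblast markers had 4 UMIs in all, with Dcn, Lum and Pdgfra at 0. The 6 neutrophil markers had 42 UMIs, 52.2 CPM against 257 CPM in the other monocyte/macrophage-like barcodes, and Mmp9 is a gene that neutrophils also express. No barcode of the 39 had 3 or more markers of T cells, neutrophils, fibroblasts or mast cells, while 5 of the 39, against 28 of the 2059 others, had 3 or more of 6 cDC1 markers. In the 39 the cDC1 markers Xcr1, Clec9a and Itgae were at 0, and the summed level of the 6 was 132 against 204 CPM. Cadm1 was higher in the 39, at 62.1 against 3.41 CPM, while Irf8 (48.4 against 140 CPM) and Wdfy4 (21.1 against 57.2 CPM) were lower. Barcodes with 3 or more of 6 cDC2 markers were 4 of 39 against 466 of 2059, and with 3 or more of 4 cell cycle markers 3 of 39 against 15 of 2059 (summed level 178 against 26.8 CPM). Over the 39 barcodes the cell cycle level had a median of 0 and a maximum of 2295 CPM. The part of these in the results was not tested.

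Other genes that differed most in the same comparison were taken by size among all measured, after the values had been seen. The metallothionein Mt3 was at 1179 against 5.06 CPM (log2 6.30), present in 16 of 39 barcodes. Bdh2, a short-chain dehydrogenase, was at 158 against 0.775 CPM (log2 3.96). The mitochondrial protein gene Chchd10 (3.85), Tsc22d1 (3.81), the semaphorin and VEGF co-receptor Nrp2 (3.67) and the unconventional myosin Myo10 (3.55) followed. At the other end, the cytokine gene Il1b was at 86.9 against 1998 CPM (log2 −4.37), the chemokine Cxcl2 at 78.3 against 1177 CPM (log2 −3.75), and the lipopolysaccharide co-receptor Cd14 at 122 against 1336 CPM (log2 −3.35). The antiviral membrane protein gene Ifitm3 stood at −4.31. Thbs1, present in 11 of 39 barcodes and so short of the measured rule, was at 73.3 against 1942 CPM (log2 −4.55).

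The wider set of 237 E2 barcodes with 3 or more of the genes shared less of this. Compared with the 1959 other monocyte/macrophage-like barcodes, 60 of 4768 genes measured (1.26%) were at least 2-fold higher and 1.32% at least 2-fold lower. The highest were Stmn1, a tubulin regulator of dividing cells (log2 2.31), Mfge8, an opsonin for dying cells (2.28), Nrp2 (2.26) and Actn1 (2.25), with Cd9 (1.85), the lipase Lpl (1.76), the osteopontin gene Spp1 (1.75) and Itgax (1.73) further down. The lowest were Thbs1 (−2.56), Pou2f2 (−1.80) and Tgm2 (−1.73), and Cd14 (−1.51) and Il1b (−1.49) were again low. Of the 19 acid secretion and resorption genes measured here, 0 were 2-fold higher and the median was 0.20. Only 111 of the 237 barcodes were monocyte/macrophage-like. Against all 5554 other E2 barcodes, 3 of the 19 genes were at least 2-fold higher, with a median of 0.50, beside 0.734% higher and 0.545% lower of 4768 genes. In the 198 of them that lacked the 3-gene combination, 1.32% of 4704 genes were at least 2-fold higher and 1.17% at least 2-fold lower. There the median of that list was −0.01, and 0 of 7 transcription factors were 2-fold higher. In placebo the 127 barcodes with 3 or more of the genes had 0 of 20 acid secretion and resorption genes 2-fold higher, with a median of 0.05, beside 1.35% of 4608 genes at least 2-fold higher and 1.09% at least 2-fold lower. Of 7 attachment and fusion genes, the tetraspanins Cd9 and Cd81 were at least 2-fold higher in the 198 E2 barcodes (log2 1.69 and 1.16) and in the placebo barcodes (1.47 and 1.28), unlike Cd81 in the 39 described above.

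Over the 31 clusters of both libraries, likeness to each gene was measured as the Pearson correlation of log2(CPM + 10). Ctsk was closest to Bdh2 (r = 0.883), Acp5 to Mt3 (r = 0.790) and Atp6v0d2 to Mt3 (r = 0.848) and Slc9b2 (r = 0.845). These 3 members, Ocstamp and Nfatc1 were all highest in cluster 21, where most of the 3-gene barcodes lie. In E2, the 3-gene barcodes, chosen by Ctsk, Acp5 and Atp6v0d2, held 80% of Ctsk, 63.1% of Acp5 and 67.3% of Atp6v0d2 UMIs. They also held 77.0% of Bdh2, 83.7% of Mt3 and 89.4% of Slc9b2 UMIs. The r values of Ctsk, Acp5 and Atp6v0d2 with these genes are thus not independent of that choice. The part of cluster 21 in r was not tested. Dcstamp was highest in cluster 7 and closest to the macrophage elastase gene Mmp12 (r = 0.819), followed by Ocstamp (r = 0.813). Tnfrsf11a was highest in cluster 16, the mature dendritic-like cluster, and closest to Dnaaf3 (r = 0.824) and the chemokine gene Cxcl16 (r = 0.817). Nfatc1 had no gene closer than Zfp97 (r = 0.684). The clusters share 2 libraries and differ in depth, so these values describe likeness over clusters and no more.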

How the data were processed

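Single-cell 3' libraries of live CD45+ tumour cells, 1 from E2-treated and 1 from placebo-treated ovariectomised mice, were analysed. The authors deposited raw UMI counts per gene and barcode, for which the submitters' processing notes name Cell Ranger 3.1.0 and mm10; how barcodes were filtered is not stated there. Levels are written as CPM, computed here from the deposited counts. The 7 genes and the pathway and marker lists were chosen with earlier results of these data known. Counts of barcodes and library levels used all barcodes. For clustering, barcodes with under 200 genes and those with the highest Scrublet doublet scores (0.8% per 1000 barcodes) were left out (292 in E2, 112 in placebo). Clustering used scanpy 1.11.5 and leidenalg 0.10.2 (2000 variable genes without the 7, 30 components, 15 neighbours, resolution 1), and 31 clusters were named from fixed markers, 3 or more being needed. Intervals were computed with scipy 1.17.1 under Python 3.11.15: Clopper-Pearson for shares, also where the count was 0, Poisson for CPM and conditional binomial for ratios. With 1 library a group no test was run. Log2 ratios used a pseudocount of 10 CPM. Besides the 7 and the pathway lists, the genes named were the 15 highest and 10 lowest by log2 ratio in a comparison and the closest genes over clusters. The interval of the ratio was tested on simulated Poisson counts, and no other step was tested on simulated data. Alternatives in thresholds, depth, barcodes, clustering and pseudocount were tried. One listed gene entered counts and sums but its own values are not reported here.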

Additional observations from a re-analysis of the deposited data

How the results depend on the processing

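No paired analysis was possible because each group has 1 library, and no replicate could be left out. The alternatives of the 3-gene barcodes, of shared sequences and of restricting the count of 3 or more genes to a class or depth were chosen after seeing the data; the cause of each shift was not tested. The ratio of shares of barcodes with 3 or more genes (1.13) was 1.87 (1.13 to 3.23) with 2 UMIs of each gene, 2.10 thinned to 2000 UMIs, 0.598 in monocyte/macrophage-like barcodes and 0.786 in barcodes with at least 10000 UMIs. The E2 share of 3-gene barcodes (0.673%) was 0.449% for barcodes with 10 UMIs of Ctsk and of Acp5 whether or not they had Atp6v0d2, 0.286% thinned to 2000 UMIs and 1.63% at 10000 UMIs or more; the placebo share was 0 with 10 UMIs and thinned to 2000 or 5000 UMIs. Without the barcodes that have 3 or more genes, ratios of E2 over placebo were 2.65 for Ctsk, 0.615 for Acp5 (turned round), 1.31 for Atp6v0d2, 0.753 for Dcstamp and 0.775 for Nfatc1. Without the 3-gene barcodes, which Ctsk, Acp5 and Atp6v0d2 themselves chose, the ratios were 2.06 for Ctsk, 0.689 for Acp5 (turned round), 1.65 for Atp6v0d2, 0.582 for Ocstamp and 0.792 for Nfatc1. In monocyte/macrophage-like barcodes they were 1.64 for Ctsk, 1.99 for Atp6v0d2, 0.459 for Dcstamp and 0.416 for Ocstamp. In the same barcodes they were 0.911 for Acp5 (0.816 to 1.02, including 1) and 0.991 for Tnfrsf11a, both below 1. Thinned to 2000 UMIs they were 0.991 for Acp5 (0.872 to 1.13, including 1), 2.59 for Atp6v0d2, 0.838 for Dcstamp, 0.595 for Ocstamp and 0.850 for Nfatc1. As a mean of each barcode's own CPM they were 5.49 for Ctsk, 0.989 for Acp5 (near 1, with no interval), 2.22 for Atp6v0d2 and 1.44 for Tnfrsf11a. Ctsk was at 21.8 without shared barcode sequences, and Acp5 at 1.72 without the highest barcode of each library. The share of E2 barcodes with 3 or more genes that were monocyte/macrophage-like (46.8%) was 54.9% at Leiden resolution 0.5. The 60 genes at least 2-fold higher in barcodes with 3 or more genes became 97 and 17 with pseudocounts of 1 and 50 CPM and 283 with no minimum of UMIs, where 2 acid secretion and 2 attachment genes were counted; with a mean of at least 20 CPM over both groups, added after seeing the data, they became 137, with 2 acid secretion genes; the 395 of the 3-gene barcodes became 132 with a pseudocount of 50 CPM. The other 126 recomputed values stayed within their counting interval or 1.5 times the count. Depth limits every share of barcodes with a UMI, and the number of mice behind a library is unknown here.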

Other observations

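Acp5 was also found in neutrophil-like barcodes of placebo. There were 2 Acp5 UMIs in 1 of 539 neutrophil-like E2 barcodes (1.12 CPM) and 54 UMIs in 16 of 266 placebo barcodes (86.5 CPM, 65.0 to 113). The highest placebo barcode held 10 UMIs, 4 held 5 or more, and 44 UMIs were left without the highest.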
